A study of Rattus norvegicus with 36 samples.

Results

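The genes described here encode the proteins that sense DNA breaks and repair them, and their transcripts were measured in rat thyroid after injection of radioiodine. The list holds 39 genes, chosen by name and sorted by repair pathway, and 30 of them had a probe whose accession could be matched to a RefSeq gene, with 1 probe each. Atr, Tp53bp1, Rad52, Xrcc3, Fanca, Prkdc, Lig3, Ercc2 and Msh6, 9 genes in all, were not analysed here because no probe was matched to them. The arrays held 30367 probes in total, of which 17998 were matched to 15154 genes. H2afx and Mre11a are the names in the list for the genes that RefSeq now calls H2ax and Mre11.

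Thyroid tissue was taken 24 h after intravenous injection of 131I in normal adult male Sprague Dawley rats, 4 rats each at the lower activities of 9, 88, 170, 260 and 340 kBq and the higher ones of 760, 1300 and 4700 kBq. The 4 controls received saline without iodine-131 (0 kBq) in the same volume, and all 9 groups ate standard laboratory chow. The radionuclide 131I is concentrated by thyroid follicular cells and emits beta particles and photons as it decays, so the dose to the gland builds up over time and is not given in a single fraction. RNA of each rat was hybridized to its own 1-colour Agilent array. A level is the log2 of a probe's background-subtracted intensity minus the 75th percentile of its array, and a difference is the mean level of an irradiated group minus that of the controls. Rats were injected in order of rising activity and the controls last, so activity and order of injection cannot be told apart. Each value is 1 thyroid of 1 rat, and p-values measure the spread between rats.

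A double-strand break is bound by the MRN complex, which activates the kinase ATM, and single-stranded DNA activates the kinase ATR. These kinases phosphorylate the histone H2AX beside the break and, through the checkpoint kinases CHK1 and CHK2, halt the cell cycle. Breaks are then rejoined end to end, in any cell, or copied from the sister chromatid by homologous recombination, which needs a replicated chromosome and is therefore used by dividing cells. Damaged bases and single-strand breaks are repaired by base excision, and bulky lesions by nucleotide excision. Most of this response runs through proteins that are already present and are modified after damage, while transcription of many homologous recombination genes follows the cell cycle. Adult thyroid follicular cells rarely divide.

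The promoters of 4 genes are shown because their transcripts had the negative slopes on activity with the smallest p-values described below. Each is the 250 bases before the start used in the promoter table, 5′ to 3′ on the strand of the gene, taken from RefSeq on build GRCr8, and capitals mark the motifs searched. That start can lie inside the span of the gene, since the Brca2 window falls wholly within the annotated span, which begins at base 4895092, and those of Fancd2 and Rad54l overlap theirs in part. H2afx (chr8:53568468-53568717, plus strand), Rad54l (chr5:134841772-134842021, minus strand), Fancd2 (chr4:148234458-148234707, plus strand) and Brca2 (chr12:4895197-4895446, plus strand) read as follows.
H2afx: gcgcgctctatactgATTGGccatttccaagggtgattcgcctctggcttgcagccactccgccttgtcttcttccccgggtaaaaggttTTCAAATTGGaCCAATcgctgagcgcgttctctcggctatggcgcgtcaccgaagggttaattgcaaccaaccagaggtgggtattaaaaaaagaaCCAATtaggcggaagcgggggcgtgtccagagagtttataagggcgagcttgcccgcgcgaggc
Rad54l: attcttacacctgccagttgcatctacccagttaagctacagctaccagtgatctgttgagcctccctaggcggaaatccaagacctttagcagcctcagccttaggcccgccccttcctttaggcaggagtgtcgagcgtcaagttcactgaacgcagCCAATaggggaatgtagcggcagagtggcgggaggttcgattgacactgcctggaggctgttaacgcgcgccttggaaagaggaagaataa
Fancd2: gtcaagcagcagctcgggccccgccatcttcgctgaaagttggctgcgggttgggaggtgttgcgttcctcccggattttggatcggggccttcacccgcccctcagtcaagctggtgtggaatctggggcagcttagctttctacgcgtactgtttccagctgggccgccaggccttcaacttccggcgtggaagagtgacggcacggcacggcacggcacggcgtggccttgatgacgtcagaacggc
Brca2: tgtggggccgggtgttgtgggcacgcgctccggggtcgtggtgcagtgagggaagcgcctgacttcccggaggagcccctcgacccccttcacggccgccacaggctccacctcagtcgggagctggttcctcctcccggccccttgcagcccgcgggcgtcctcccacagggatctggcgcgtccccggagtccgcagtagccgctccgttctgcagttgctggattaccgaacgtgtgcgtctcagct

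The motifs searched on both strands were CCAAT, which the factor NF-Y binds, TTTGAA, the core of the cell cycle homology region, and TTTNNCGC, a form of the E2F site. The H2afx promoter held 4 copies of CCAAT, with 230, 150, 144 and 59 bases between the copy and the start, and 1 of TTTGAA at 154 bases, which shared a base with the copy at 150. The Rad54l promoter held 1 copy of CCAAT at 86 bases from the start, and neither the Fancd2 nor the Brca2 window held any of these letters. Of the 24 analysed members with an entry in the promoter table, 33.3% held CCAAT, beside 34.0% of all 33469 promoters of that length. TTTGAA was found in 12.5% of the members and 16.2% of all promoters, and TTTNNCGC in 12.5% and 4.11%. These matches are a description of letters in the window and not of binding.

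The libraries of one group were unlike each other in tissue content. The mean level of 12 follicular cell markers, with thyroglobulin and thyroperoxidase among them, lay between 0.91 and 2.37 in 18 libraries, called follicular-rich below, and between -5.19 and -1.02 in the other 18. Of the 4 rats per group, 3 were follicular-rich at 0 and 4700 kBq, 1 at 9 and at 340 kBq, and 2 at each of the remaining activities. The mean of 9 lymphoid markers lay between 0.74 and 1.5 in 3 libraries (rat 2 of the controls, rat 2 of the 9 kBq group and rat 1 of the 88 kBq group) and between -6.63 and -4.64 in the other 33. Skeletal muscle markers averaged between -3.28 and 7.56, and squamous epithelium markers between -4.88 and 4.50. Between 62.6% and 91.0% of the probes of an array lay well above background, and the highest share belonged to rat 4 of the 340 kBq group, which stood apart. In tissue of this kind, fewer cells of a type and less RNA per cell cannot be told apart.

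Compared with the controls, no probe was called in any of the 8 irradiated groups, and so no member was. The limma fit called 0 of 240 pairs of member and activity at a 1.5-fold change with an adjusted p-value under 0.01. At these limits 0.0% of the 30367 probes were called in any group, so the count does not set the members apart. The study itself, with other software, reported regulated transcripts in every irradiated group at the same limits. With the limma fit on the authors' quantile-normalized matrix, 4, 4, 3 and 4 probes were called at 9, 88, 170 and 260 kBq. At the other activities 0 were called, and no member was among the called probes. At an unadjusted p-value under 0.05, 5 of the 240 pairs (4 genes) passed, beside 3.90% of the pairs over all probes. The differences of the members were small beside their spread. The 95% interval of a difference reached 0.73 log2 units to either side in the median pair, and it lay within a 2-fold change for 122 of the 240 pairs.

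**Figure D1:**
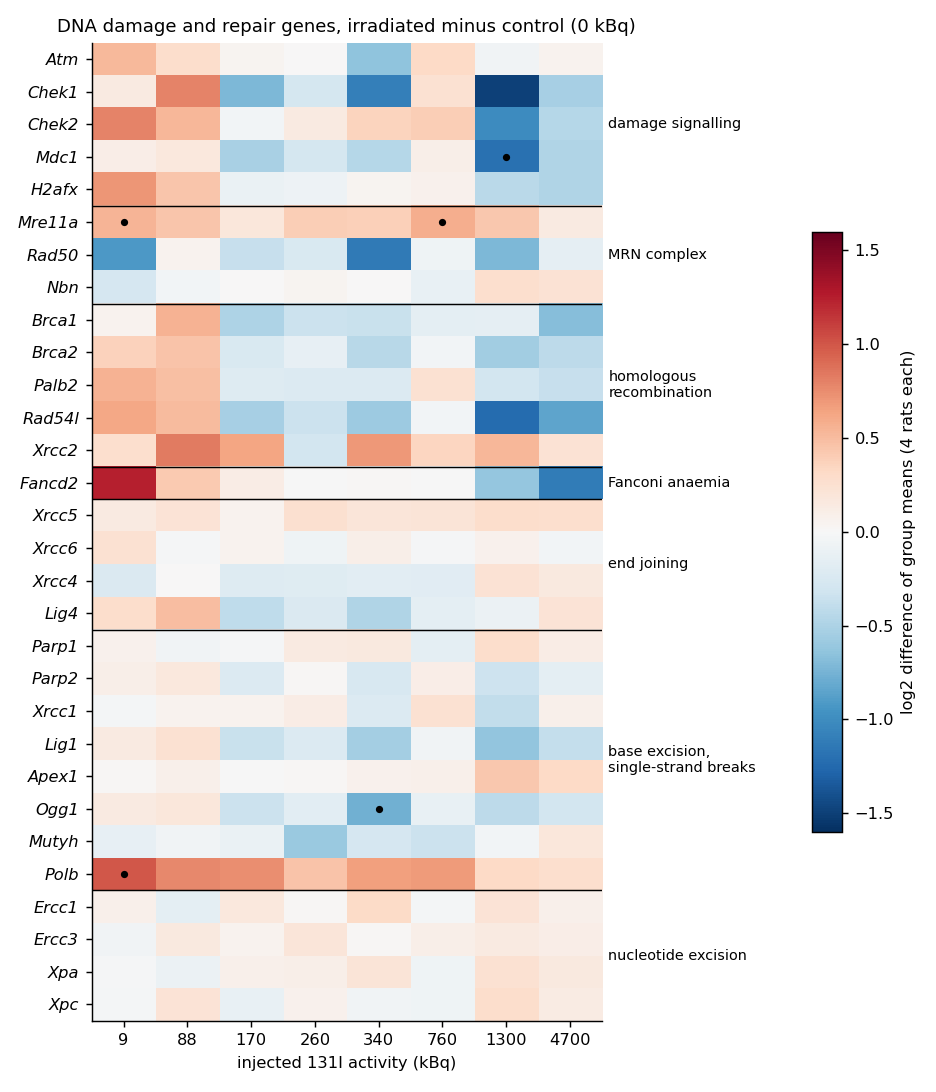
Log2 difference between each irradiated group and the controls for the 30 members (rows, by repair pathway) at each of 8 injected activities (columns, in kBq), with red for higher and blue for lower. Black points mark the 5 pairs with an unadjusted p-value under 0.05, which lie in the rows of Mre11a, Polb, Ogg1 and Mdc1.

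By activity, the members at an unadjusted p-value under 0.05 were 2 of 30 at 9 kBq (both higher), beside 3.22% of all probes, and 0 of 30 at 88, 170 and 260 kBq, beside 3.36%, 2.36% and 1.12%. At 340 kBq 1 member passed (lower), beside 13.7% of all probes. At 760 kBq 1 passed (higher), beside 1.64%, at 1300 kBq 1 (lower), beside 4.18%, and at 4700 kBq 0, beside 1.66%. The median difference of the members was 0.14 and 0.21 at 9 and 88 kBq, and it lay between -0.11 and 0.07 at the 6 higher activities. The median over all probes was 0.12 at 170 kBq, 0.31 at 340 kBq and 0.22 at 1300 kBq and under 0.10 at the other activities, so the medians of the members at 340 and 1300 kBq were 0.42 and 0.29 below that of all probes. Under quantile normalization, which brought the median of all probes to -0.02 at 340 kBq, the member median there was -0.29. The smallest adjusted p-value of a member in these comparisons was 0.27, at 340 kBq.

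Of the MRN complex, Mre11a, the nuclease subunit, was the member whose groups were set apart most often. Its levels in the 4 controls were -4.92, -4.62, -4.94 and -5.01. They were -4.45, -4.01, -4.44 and -4.42 at 9 kBq and -4.54, -4.17, -3.89 and -4.57 at 760 kBq. In both irradiated groups every rat lay above every control, while at 4700 kBq the 4 rats lay between -4.76 and -4.72, inside the range of the controls. The difference was 0.55 ± 0.25 (SE, n = 4 per group) at 9 kBq with an unadjusted p = 0.038, and 0.58 ± 0.25 at 760 kBq with unadjusted p = 0.0271, and no adjusted p under 0.99. In both groups the exact permutation test gave its smallest possible two-sided p, 0.0286. At 9 kBq the difference was 0.37 (unadjusted p = 0.128) with the follicular marker mean as a covariate and 0.44 (unadjusted p = 0.115) without rat 2. At 760 kBq it was 0.45 (unadjusted p = 0.104) without rat 3. Under quantile normalization neither passed, at 0.41 and 0.48, nor with the slide as a block, at 0.49 (unadjusted p = 0.083) for 9 kBq and 0.49 (unadjusted p = 0.093) for 760 kBq.

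Nbn, the subunit that recruits ATM to breaks, was the other member whose groups did not overlap. The controls lay between 0.21 and 0.33 and the 9 kBq rats at 0.20, 0.13, -0.05 and -0.21. The difference of -0.26 did not reach the threshold in the limma fit (unadjusted p = 0.18). Rad50, the subunit that tethers the broken ends, varied most between rats of a group (SD 1.43 log2 units) and none of its 8 differences passed. Over the 30 members 2 at 9 kBq and 1 at 760 kBq had 4 rats beyond all 4 controls, beside 1.73% and 1.63% of all probes. At 88, 170, 260, 340, 1300 and 4700 kBq the count was 0, beside 1.86%, 1.25%, 1.07%, 4.34%, 1.26% and 1.27%.

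Among the signalling genes, Mdc1, the adaptor that binds phosphorylated H2AX, was lower at 1300 kBq than in the controls. The controls were at 0.18, 0.67, -0.43 and 0.91 and the 1300 kBq rats at -1.45, -0.91, -0.13 and -0.97. Only rat 3 of that group lay within the control range. The difference was -1.20 ± 0.45 (unadjusted p = 0.0132, adjusted p = 0.84, exact permutation p = 0.0571), or -1.42 relative to the median of all probes. It was -1.14 in the follicular-rich libraries alone, which kept 2 rats at 1300 kBq and 3 controls. At 4700 kBq the 4 rats were spread from -1.26 to 0.92 and the difference of -0.48 did not pass. Chek1, a checkpoint kinase, had the largest single difference of all members, -1.50 ± 0.89 at 1300 kBq, with an unadjusted p = 0.10. Its 4 rats there ran from -7.78 to -4.57 and the controls from -6.35 to -3.06. It was well above background in 2 of those 4 rats. Atm and Chek2, the kinases of the double-strand break response, passed in no group.

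Of the base excision genes, Polb, the polymerase that fills the gap, had differences of 0.27 to 0.997 in the 8 comparisons, or 0.11 to 0.93 relative to the median of all probes. These comparisons share the same 4 controls, and the 9 kBq group alone passed. Its levels were -2.57, -2.50, -1.95 and -2.82 in the controls and -2.02, -1.94, -0.77 and -1.12 at 9 kBq, so that a single irradiated rat lay within the control range. The difference at 9 kBq was 0.997 ± 0.38 (unadjusted p = 0.0139, adjusted p above 0.99, exact permutation p = 0.0571). It was 0.49 (unadjusted p = 0.057) with the follicular marker mean as a covariate, and 3 of the 4 controls were follicular-rich against 1 of the 9 kBq rats. Ogg1, a glycosylase that removes oxidized guanine, was lower at 340 kBq, where the rats were at -3.83, -2.62, -2.47 and -2.07 and the controls at -1.99, -1.38, -2.41 and -2.11. The difference of -0.77 ± 0.31 (unadjusted p = 0.0195, exact permutation p = 0.0857) was -1.002 without rat 4, the library that stood apart, and -0.41 (unadjusted p = 0.170) without rat 1. It was -0.24 (unadjusted p = 0.421) in the follicular-rich libraries, where the 340 kBq group kept 1 rat, -0.58 (unadjusted p = 0.053) without the lymphoid-rich control and -0.67 (unadjusted p = 0.063) with the slide as a block. Xrcc1, the scaffold of single-strand break repair, lay between 1.64 and 3.61 in the 36 rats and passed in no group. Polb and Ogg1 are named here after their values had been seen.

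**Figure D2:**
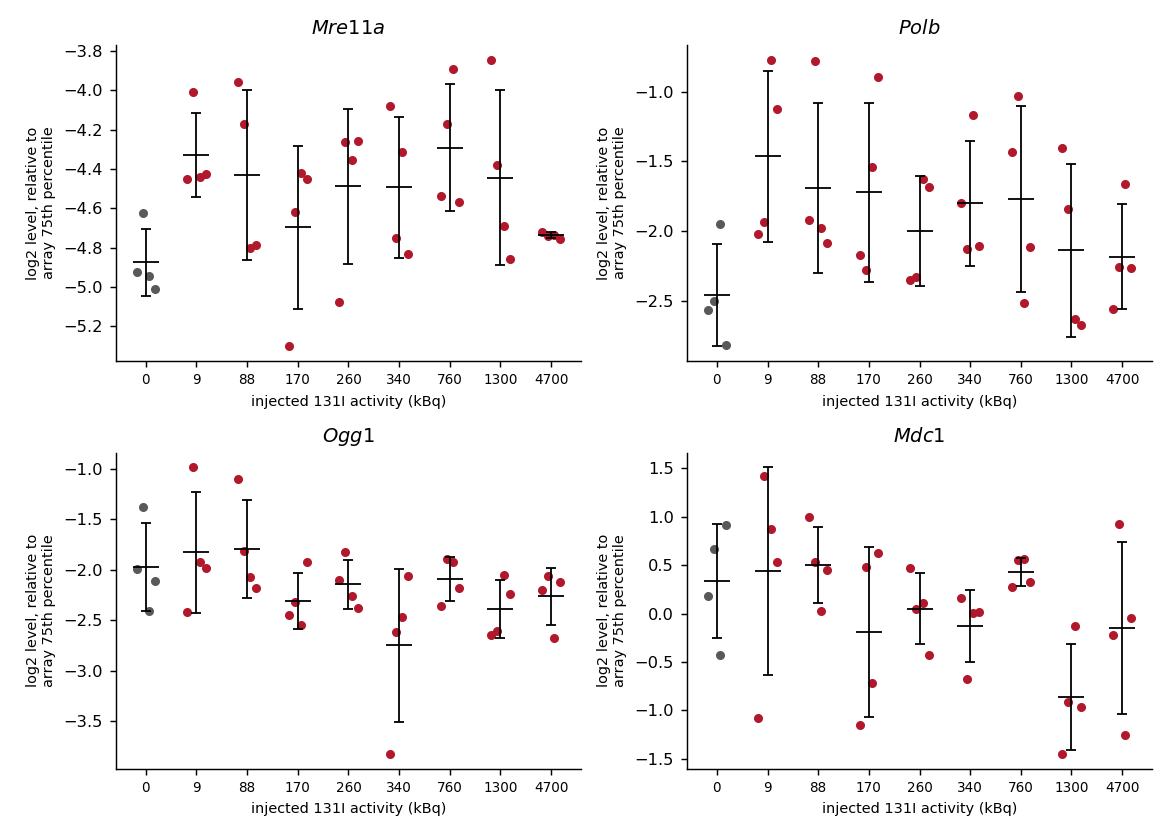
Log2 level of the 4 members with an unadjusted p-value under 0.05 in a comparison with the controls, in every rat (points; controls grey, irradiated red), with the group mean and SD (bars, n = 4), by injected activity in kBq. Mre11a rats at 9 and 760 kBq all lie above the 4 controls, which lie between -5.01 and -4.62.

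The Ku genes and the nucleotide excision genes varied little, while Lig4, a further end joining gene, had a SD between rats of a group of 0.83. Xrcc5 and Xrcc6, which encode the Ku proteins that cap a broken end, had a SD between rats of a group of 0.21 and 0.27, and their group means ranged over 0.29 and 0.31 across the 9 groups. Ercc3, a helicase of nucleotide excision, lay between 1.28 and 2.16 in all 36 rats, with group means from 1.62 at 9 kBq to 1.86 at 260 kBq. Ercc1, a subunit of the nuclease that cuts beside the lesion, lay between -0.10 and 1.32. For 11 members all 8 intervals lay within a 2-fold change of the controls. These were Nbn, Xrcc4, Xrcc5, Xrcc6, Parp1, Parp2, Apex1, Ercc1, Ercc3, Xpa and Xpc, of which Apex1 encodes the endonuclease of base excision and Xpc and Xpa recognise bulky lesions. For these genes a change beyond 2-fold lay outside the interval in every group.

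For Brca1 and Xrcc2 the signal limited what could be seen. Xrcc2, a gene of homologous recombination, was well above background on 1 of 36 arrays and Brca1, a central factor of homologous recombination, on 14, and none of the rats at 170, 1300 and 4700 kBq had a Brca1 signal well above background. The measured mean of Brca1 was -7.27 at 170 kBq, -6.92 at 1300 kBq and -7.46 at 4700 kBq, beside -6.78 in the controls, 3 of which were above background. None of these comparisons passed the test, and no fold is given.

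Averaged over the 8 irradiated groups, 2 of 30 members were at an unadjusted p-value under 0.05, beside 3.27% of all probes, and both were higher. They were Polb (0.61 ± 0.29, unadjusted p = 0.0404) and Mre11a (0.39 ± 0.19, unadjusted p = 0.0491), and the median probe was itself 0.13 higher. With the slide as a block neither passed (Polb 0.57 with unadjusted p = 0.083, Mre11a 0.32 with unadjusted p = 0.138). Without the lymphoid-rich libraries Polb was at 0.63 with unadjusted p = 0.073. The F test over the 9 groups found 0 of 30 members at p under 0.05, beside 2.69% of all probes.

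Within the irradiated rats the measured genes of signalling and homologous recombination all had slopes on activity below 0, but no slope passed after adjustment. The share of all probes with a slope below 0 is not given, so these signs do not set the members apart. Of the homologous recombination genes, Brca1 was well above background on 14 of 36 arrays and Xrcc2 on 1. Their slopes, which count in the median below, therefore say little about the transcripts. The slope on log10 activity, in log2 units per unit of log10 activity over the 32 irradiated rats, was at an unadjusted p-value under 0.05 for 9 of 30 members, beside 10.9% of all probes. Of these 8 were negative, beside 6.33% of all probes with a negative slope at that level. The smallest p-value of a member adjusted over all probes was 0.15. The median slope was -0.43 for the 5 signalling genes and -0.34 for the 5 homologous recombination genes, and Fancd2 was at -0.83. The median over all 30 members was -0.09 and over all probes 0.03. All 4 nucleotide excision genes lay between 0.04 and 0.08, and the 4 end joining genes between -0.10 and 0.14.

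**Figure D3:**
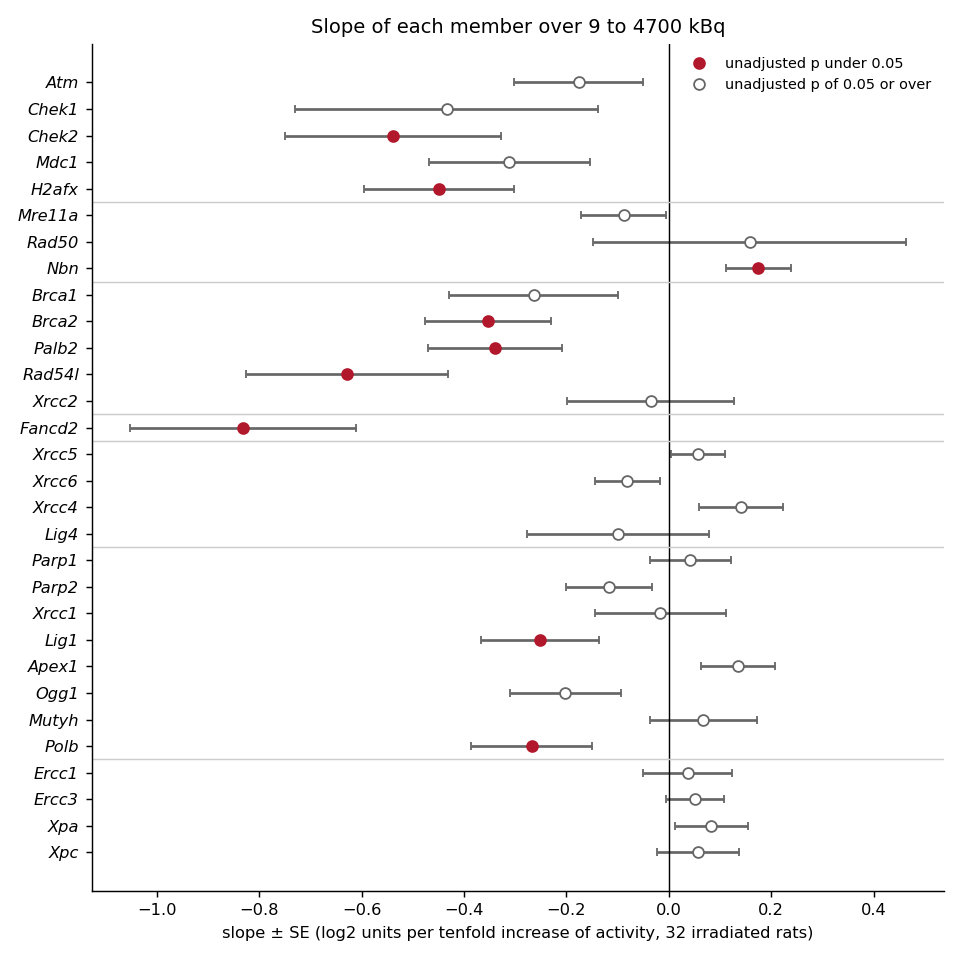
Slope of each member's log2 level per unit of log10 injected activity over the 32 irradiated rats, with its SE (bars), by repair pathway. The 9 filled points have an unadjusted p-value under 0.05, and Nbn is the one with a slope above 0.

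Fancd2, the Fanconi anaemia protein that acts at stalled replication forks, had the steepest slope, -0.83 ± 0.22 (unadjusted p = 0.0007). Its levels were -5.38, -2.79, -3.69 and -4.40 at 9 kBq, -5.12, -5.16, -6.22 and -7.21 at 1300 kBq and -7.03, -7.08, -4.91 and -6.70 at 4700 kBq. Rat 1 of the 9 kBq group and rat 3 of the 4700 kBq group lay towards the other end of the range from the rest of their groups. The controls, at -6.03, -3.64, -5.61 and -5.96, spanned most of that range, and neither 9 kBq (1.25 ± 0.75) nor 4700 kBq (-1.12 ± 0.75) differed from them at the threshold.

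Rad54l, a motor protein of homologous recombination, had a slope of -0.63 ± 0.20 (unadjusted p = 0.0031). It was at -4.06, -0.56, -1.74 and -2.44 at 9 kBq and at -3.57, -3.04, -4.66 and -3.42 at 4700 kBq. H2afx, the histone variant phosphorylated at breaks, had a slope of -0.45 ± 0.15 (unadjusted p = 0.0044), with -3.58, -1.19, -2.0 and -2.31 at 9 kBq and -3.61, -3.66, -3.09 and -3.45 at 4700 kBq. In both genes 3 of the 4 rats at 9 kBq lay above all rats at 4700 kBq and rat 1 lay within their range.

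Brca2, a mediator of homologous recombination, had a slope of -0.35 ± 0.12 (unadjusted p = 0.0068), and its partner Palb2 one of -0.34 ± 0.13 (unadjusted p = 0.0145). Chek2 had a slope of -0.54 ± 0.21 (unadjusted p = 0.0158), Lig1, the ligase of replication and base excision, one of -0.25 ± 0.12 (unadjusted p = 0.0372) and Polb one of -0.27 ± 0.12 (unadjusted p = 0.0305). Without rat 2 at 9 kBq the slope of Lig1 was -0.13 (unadjusted p = 0.245), and it did not pass with 6 of the 36 rats left out in turn. Palb2, Chek2, Lig1 and Polb are named after their values had been seen. Nbn went the other way, with a slope of 0.17 ± 0.06 (unadjusted p = 0.0092). Its rats were at 0.20, 0.13, -0.05 and -0.21 at 9 kBq and at 0.25, 0.58, 0.74 and 0.46 at 4700 kBq, and these groups did not overlap.

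Of the marker lists whose slopes are given here, those of dividing cells and of cartilage went with activity as well. The follicular and lymphoid lists were near the share of all probes. Of 16 cell cycle genes 15 had a negative slope at p under 0.05, beside 6.33% of all probes, with a median slope of -1.20. Their mean level ran from -4.28 to 0.96 at 9 kBq and from -3.47 to 0.70 at 88 kBq, and from -4.54 to -3.24 at 1300 kBq and from -4.36 to -3.89 at 4700 kBq. In the controls it ran from -3.21 to 0.23. Of the follicular markers 1 of 12 and of the lymphoid markers 1 of 9 passed, beside 10.9% of all probes, with median slopes of 1.16 and -0.77. Of 6 cartilage markers 4 passed, with a negative slope. Slopes of the squamous epithelium markers are not given. Their mean ran from -4.39 to 4.44 at 9 kBq, from -4.44 to 1.46 at 1300 kBq and from -4.57 to -2.59 at 4700 kBq. At 9 kBq it was -4.39, -2.38, 4.37 and 4.44 in rats 1 to 4, whose cell cycle means were -4.28, 0.96, -0.09 and -0.81. In control rat 3 it was 2.79, with a cell cycle mean of -3.12. The part of any of these markers in the slopes of the members was not tested.

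**Figure D4:**
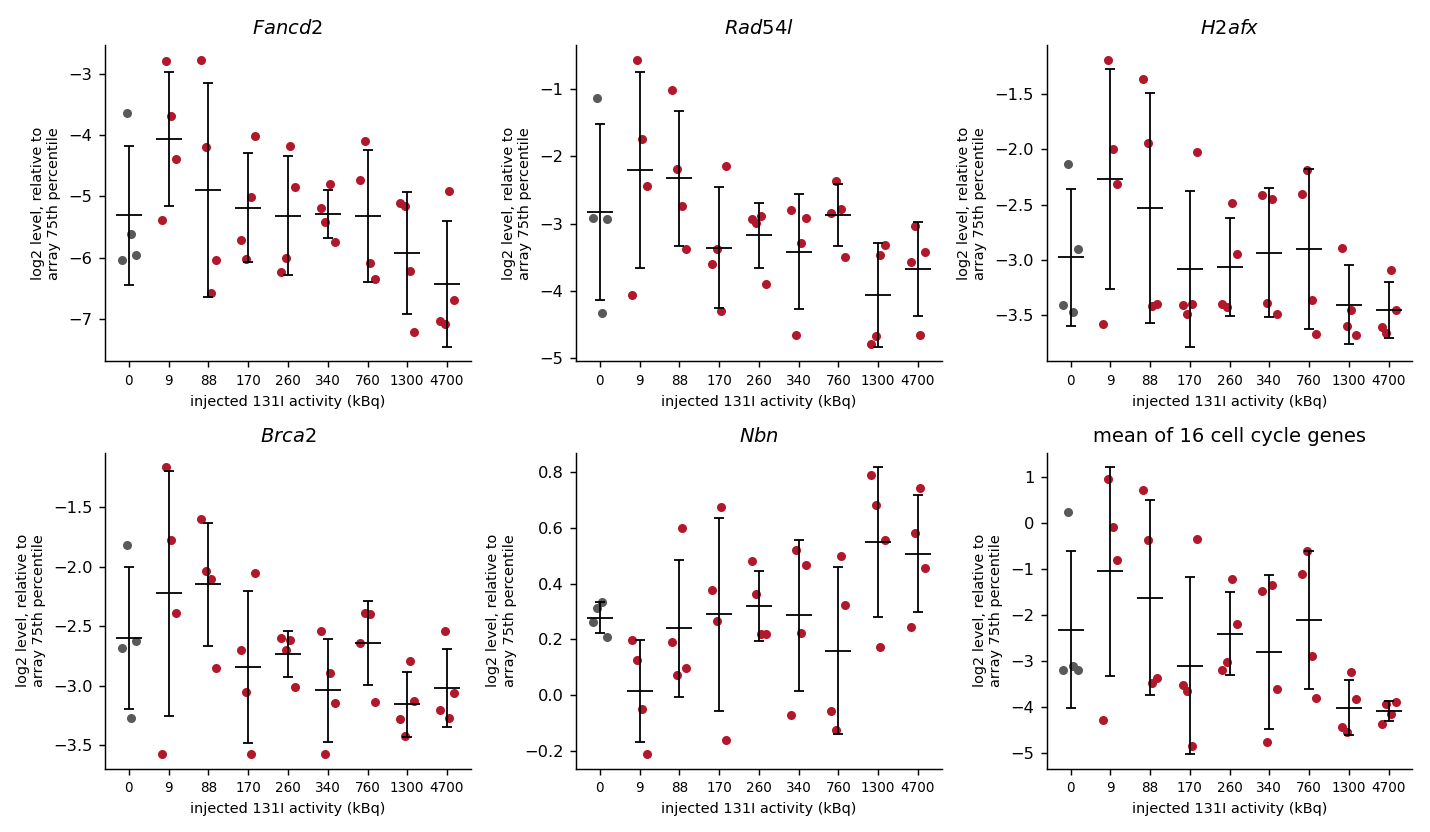
Log2 level of the 5 members with an unadjusted slope p-value under 0.01, and the mean of 16 cell cycle genes, in every rat (points; controls grey, irradiated red) with the group mean and SD (bars, n = 4), by injected activity in kBq. At 4700 kBq the cell cycle mean lies between -4.36 and -3.89, and Fancd2, Rad54l, H2afx and Brca2 are lower there in most rats than at 9 kBq.

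The number of members with a slope depended on which libraries and groups were kept. For these fits the share of all probes at an unadjusted p-value under 0.05 is not given. The counts below are therefore no result about the members. In the 18 follicular-rich libraries alone, the slope of Fancd2 was -1.09. The 9 kBq group kept only rat 2 there, which was also lymphoid-rich. Its Fancd2 level of -2.79 was the highest of the 18. Without the 3 lymphoid-rich libraries 9 members passed that level, but not the same 9. Slopes were -0.63 for Fancd2, -0.40 for Rad54l and -0.29 for H2afx. Brca2 (unadjusted p = 0.073), Palb2 (unadjusted p = 0.134), Chek2 (unadjusted p = 0.092) and Lig1 (unadjusted p = 0.377) did not pass. Nbn did not pass in the follicular-rich libraries (0.08, unadjusted p = 0.274). With the follicular marker mean as a covariate 17 members passed. Without the 9 kBq group 5 members passed, and without the 4700 kBq group 9. Within a slide, the slopes of Fancd2, Rad54l, H2afx, Brca2, Palb2 and Chek2 were negative on 4 of the 5 slides and positive on 1. Those of Rad54l ran from -1.26 to 0.70. The slopes of Atm and Mdc1 were negative on 3 slides and that of Brca1 on 2.

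Rats of the same group differed in these genes together with the cell cycle genes. After the group means were removed, the levels of 10 members were positively and that of Nbn negatively related to the mean of the cell cycle genes over the 36 rats, at an adjusted p-value under 0.05 over 120 relations (permutation test within groups, 100000 permutations, Benjamini-Hochberg). The share of all probes related to that mean is not given. This count and those of the next paragraph therefore do not set the members apart from other genes. Nor were these relations separated from squamous epithelium content, which also differed between rats of a group. At 340 kBq the mean of its markers ran from -4.19 to 3.64. For H2afx Pearson's r was 0.92 and Spearman's rho 0.90, each with p = 1e-05, the smallest these permutations can give, and adjusted p = 0.00024 and 0.00030. Without the 2 rats farthest from the median, r was 0.90, and within the 5 slides it ran from 0.79 to 0.995. Palb2 (r = 0.90), Brca2 (r = 0.83), Rad54l (r = 0.81), Chek2 (r = 0.80), Fancd2 (r = 0.75) and Chek1 (r = 0.70) followed, and each was also related by rank. Lig1, Mdc1 and Mre11a had r of 0.65, 0.58 and 0.46. Nbn had an r of -0.60 (rho -0.62, adjusted p = 0.00462 and 0.0036).

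Taken apart by tissue content, the follicular-poor libraries had more members that passed than the follicular-rich ones, a difference that was not itself tested. Among the follicular-poor libraries of groups with at least 2 of them (n = 16), r with the cell cycle mean was 0.97 for Brca2, 0.96 for Rad54l and 0.955 for H2afx, and 9 of 30 members passed at an adjusted p-value under 0.05 over 180 such relations (permutation test). Among the follicular-rich libraries (n = 16) r was 0.71, 0.90 and 0.91 for the same genes, with adjusted permutation p-values of 0.13, 0.30 and 0.14. By Pearson's r Fancd2 alone passed there (r = 0.95, adjusted permutation p = 0.034), and by rank it did not (rho 0.78, adjusted permutation p = 0.088). In these libraries the cell cycle mean was 0.23 in rat 2 of the controls and -2.89 or below in the others. Without the 2 rats farthest from the median, r was 0.57 for Brca2, 0.70 for Rad54l, 0.71 for H2afx and 0.81 for Fancd2. In the follicular-poor libraries the same check gave 0.94, 0.94 and 0.92 for Brca2, Rad54l and H2afx. The r of Nbn was 0.13 in the follicular-rich libraries and -0.85 in the follicular-poor ones (adjusted permutation p = 0.29), and neither passed. Without the lymphoid-rich libraries (n = 33) r was 0.78, 0.71 and 0.89 for Brca2, Rad54l and H2afx, and 14 members passed, 10 with a positive and 4 with a negative r. The negative ones were Xrcc4, a partner of Lig4 in end joining (r = -0.79), Nbn (-0.76), Lig4 (-0.63) and Parp1, which senses single-strand breaks (-0.54). Xrcc6 passed with r = 0.55 in these 33 rats (adjusted permutation p = 0.048, by rank 0.088), while over all 36 rats its r was 0.11.

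Lig4, the ligase of end joining, was set apart in the 3 lymphoid-rich libraries. It was at -0.54 in rat 2 of the controls, 0.56 in rat 2 at 9 kBq and 0.26 in rat 1 at 88 kBq, while in the other 33 rats it lay between -3.00 and -1.46. Those 3 rats were the highest of all 36 and belonged to 3 groups. Since the libraries fall into separate clusters, no pooled correlation with the lymphoid mean is given, and within the 33 rats Lig4 was not related to it (r = -0.25, rho = -0.19, adjusted p = 0.50 and 0.64, permutation test).

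Rad50 separated the follicular-rich from the follicular-poor libraries without overlap, and it was the only member analysed that did so. It lay between -2.19 and -0.50, with a median of -1.34, in the 18 follicular-rich libraries and between -4.49 and -3.26, with a median of -3.93, in the 18 others. The other subunits of its complex did not follow, since the medians of Mre11a and Nbn differed by -0.35 and 0.13 between the same libraries. Within the follicular-rich libraries r of Rad50 with the follicular mean was 0.80 and within the poor ones 0.43, with adjusted permutation p-values of 0.08 and 0.22. Ercc1 went the other way, with medians of 0.36 and 0.90 in rich and poor libraries, and so did Fancd2, at -6.06 and -4.83, and Polb, at -2.30 and -1.58. Xrcc1 was at 3.01 and 2.48, and within the follicular-rich libraries its r with the follicular mean was 0.89 (rho 0.78, adjusted permutation p = 0.034 and 0.086). Within the poor ones it was -0.31 (rho -0.33, adjusted permutation p = 0.53 and 0.62).

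**Figure D5:**
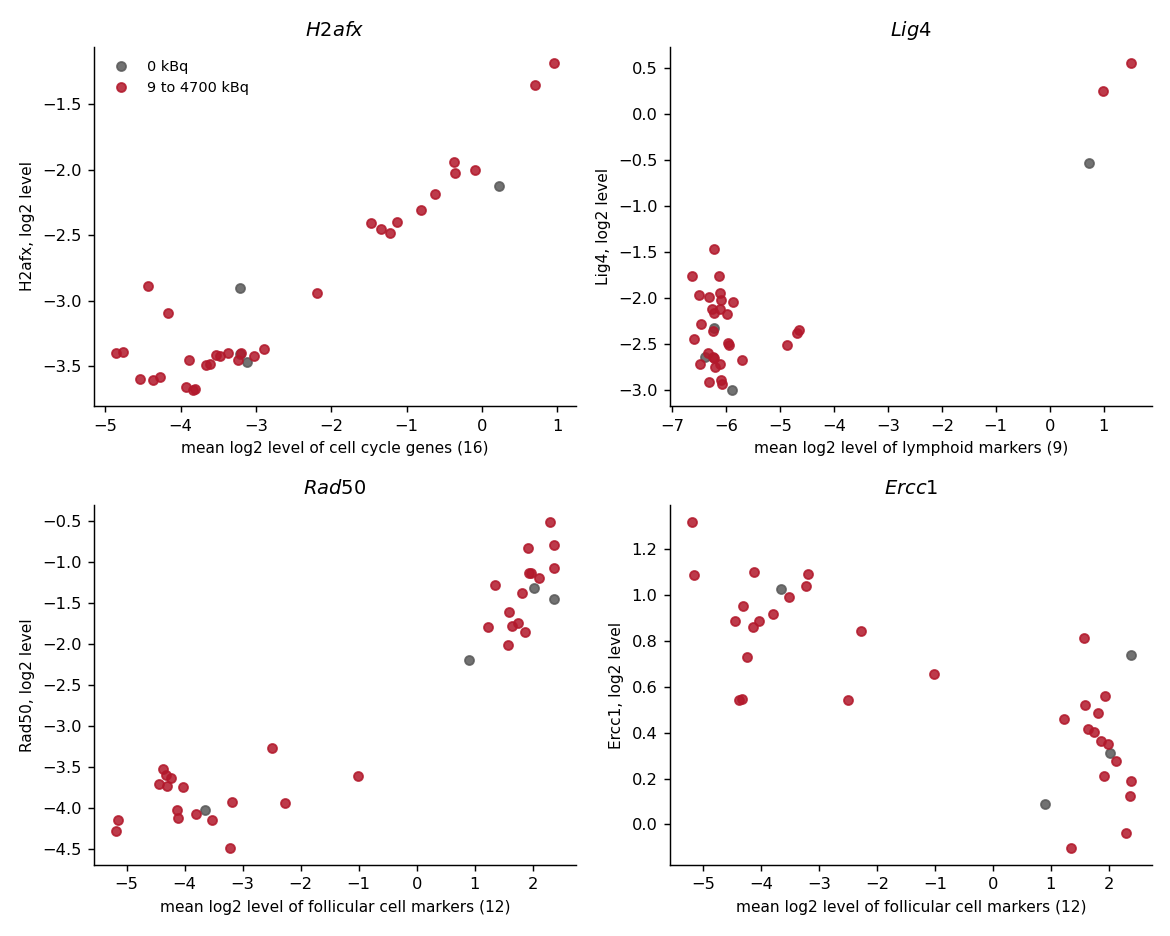
Log2 level of H2afx, Lig4, Rad50 and Ercc1 in each of the 36 rats (points; controls grey, irradiated red) against the mean log2 level of cell cycle genes, lymphoid markers or follicular cell markers. H2afx is higher where the cell cycle mean is higher, the 3 rats highest in Lig4 are the 3 lymphoid-rich libraries, and the 18 follicular-rich libraries lie above the rest in Rad50.

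Of 92 further repair genes 71 had a probe, and 0 of their 568 pairs with an activity were called. At an unadjusted p-value under 0.05, 14 pairs passed, 11 of them higher and 3 lower, beside 3.90% of the pairs over all probes. On activity, 14 of the 71 had a slope at that level, beside 10.9% of all probes, and 11 of them were negative, beside 6.33%. These held Bard1, the partner of BRCA1 (-0.998 ± 0.26), Rad54b, a relative of Rad54l (-0.80 ± 0.24), Polq, the polymerase of alternative end joining (-0.60 ± 0.15), and Polh, a polymerase that copies past lesions (-0.44 ± 0.10), all with adjusted p of 0.108 or more and named after their values had been seen. Mgmt, which removes alkyl groups from guanine, had a positive slope (0.33 ± 0.13). All 6 mismatch repair genes and all 9 nucleotide excision genes of this list were without a slope at that level.

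Of 3 p53 target genes measured beside them, none was called in this fit, which called no probe in any group. Each had 2 probes, and the one with the higher mean level was used. Mdm2, the ligase that degrades p53, was 1.38 ± 0.24 higher at 4700 kBq than in the controls (adjusted p = 0.033) and 0.97 ± 0.24 higher at 1300 kBq, with no overlap of rats in either group. Aen, a p53-induced nuclease, was 1.92 ± 0.41 higher at 4700 kBq, again without overlap (adjusted p = 0.232). Its rats also lay above all controls at 9, 88, 170, 260 and 760 kBq, with a difference of 0.49 at 9 kBq and 1.33 at 760 kBq, and overlapped with them at 340 and 1300 kBq. Cdkn1a, the p53-induced inhibitor of the cell cycle, was 2.41 ± 0.82 higher at 4700 kBq (unadjusted p = 0.0063, adjusted p above 0.99). Its SD between rats of a group was 1.20 with this probe and 0.42 with the other, whose differences are not given here. In the study's own comparison Cdkn1a was regulated at 4700 kBq alone, and qPCR, run on some of the groups, also found a difference from the controls. The study called the correlation of qPCR and array values across animals weak for this gene, though with a significant slope.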

How the data were processed

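RNA of 36 individual rat thyroids was hybridized to 1-colour (Cy3) Agilent arrays, 8 per slide, on 5 slides scanned on 2 days. The deposited scanner files hold intensity per spot, background-subtracted by Feature Extraction 10.7.3.1. The authors also deposited a matrix of quantile-normalized linear intensity, used here as an alternative. The methods give Nexus Expression for the study's own comparisons, and the submitters' processing notes name Partek.

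From the deposited intensity, log2 values minus the 75th percentile of each array were computed, after control spots and outlier flags had been left out, and spots of one probe were averaged. The 75th percentile lay between 1564 and 4288 (linear intensity), no spot was saturated, and precision is limited by how many arrays there are. Probes were named through their accessions in RefSeq. limma 3.58.1 in R 4.3.3 (package data.table, version 1.17.8) was fitted on all 30367 probes with 1 mean per group, and p-values were adjusted by Benjamini-Hochberg over all probes. Called probes changed 1.5-fold or more with an adjusted p-value under 0.01, the limits in the study's methods. Slopes were fitted on log10 activity over the 32 irradiated rats. Permutation tests, relations and figures used Python 3.11.15, numpy 2.4.6, pandas 2.3.3, scipy 1.17.1 and matplotlib 3.10.9. The code was tested on simulated data. Rat numbers did not pair rats of different groups (mean correlation of deviations -0.02 for the same number and 0.007 for different numbers).

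The members and lists were chosen with earlier results of these data known. Genes were named by rule, namely members with 4 rats beyond all controls and an unadjusted p-value under 0.05, members with p under 0.01 in the slope, the mean or the F test, and the member with the highest mean level and that with the largest SD in each pathway, 14 genes in all. Levels are given by rat where a result turns on them and by range for the rest, Xrcc1, Xrcc6 and Ercc3 among them. Alternatives were quantile normalization, median centring, normexp background correction, the authors' matrix, a filter on dim probes, the slide, scan day or rat number as a block, a fit on the 2 groups compared, eBayes with trend and robust, array weights and each rat left out. Fits on follicular-rich libraries, without lymphoid-rich libraries, with the follicular mean as a covariate and without the 9 or the 4700 kBq group were added after the data had been seen.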

Additional observations from a re-analysis of the deposited data

Results flagged for a closer look

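In 9 of 126 groups of 4 rats, 1 rat lay far from the other 3 by Dixon's test at the 95% level, where chance gives about 1 in 20 groups. H2afx was at -2.02 in rat 4 at 170 kBq, with the others between -3.49 and -3.40. Mre11a was at -4.01 in rat 2 at 9 kBq, with the others between -4.45 and -4.42, and at -5.07 in rat 1 at 260 kBq, with the others between -4.36 and -4.26. Rad50 was at -1.61 in rat 4 at 340 kBq, the one follicular-rich library of that group, with the others between -4.12 and -3.74. Rad54l was at -3.89 in rat 4 at 260 kBq, with the others between -2.98 and -2.89. Xrcc6 was at 1.28 in rat 2 at 9 kBq (others 1.94 to 1.96), at 1.92 in rat 2 at 88 kBq (others 1.33 to 1.42) and at 1.90 in rat 2 at 760 kBq (others 1.37 to 1.43). Ercc1 was at -0.036 in rat 3 at 88 kBq, with the others between 0.49 and 0.55.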

How the results depend on the processing

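No named difference or slope reversed under any alternative run. The number of members called, 0, became 1 (Polb at 9 kBq) with array weights. The 5 pairs at an unadjusted p-value under 0.05 became 3 with the slide as a block, 25 with array weights and 33 in the follicular-rich libraries, where the 9 and 340 kBq groups kept 1 rat each, assumed to vary like the other groups. The F test count of 0 became 1 under quantile normalization, median centring, the authors' matrix, the slide, the scan day or the follicular covariate, 12 with array weights and 8 in the follicular-rich libraries. The 2 members at that level in the mean of the irradiated groups became 0 under median centring, the authors' matrix, the slide or the scan day, and 1 under quantile normalization, normexp, trend and robust, the replicate block or each of the 3 fits by tissue content. The 9 slopes became 17 with the follicular covariate and 5 without the 9 kBq group. The cause of these changes was not tested. The share of all probes in these fits is not given beside the counts, so their rise or fall is no result about the members. The replicate block (rat number) left 0 called, 5 pairs, 0 in the F test and 9 slopes. The slopes of Fancd2, Rad54l and H2afx stayed negative in all 15 alternatives, and with each rat left out they stayed at an unadjusted p under 0.05. None of the alternatives took squamous epithelium content into account.

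With 1 rat left out, the members called stayed at 0, the pairs ran from 3 (without rat 4 of the controls) to 12 (without rat 1 at 9 kBq), the F test from 0 to 8 and the slopes from 7 (without rat 2 at 9 kBq) to 14 (8 and 14 without rat 1 at 9 kBq), and the mean from 0 to 2. Pairs without overlap ran from 3 to 23 (without rat 3 of the controls). The probe chosen per gene was not varied, since each member had 1 probe. Brca1 and Xrcc2, mostly not well above background, limit what their values show.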
